A study of Rattus norvegicus with 18 samples.

Results

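The change in whole-lung RNA from fetal day 19 to fetal day 22 was measured in rats, on 6 of the 18 arrays of a study of the perinatal lung. Wistar fetuses were delivered by Caesarean section, and their frozen lungs gave 3 total RNA arrays at fetal day 22 (FD22, the saccular lung shortly before birth) and 3 at fetal day 19 (FD19, the canalicular lung). Each array stands for a separate litter and its own lung lysate, and the labels name no genotype or treatment at either stage. The arrays were Affymetrix Rat Genome 230 2.0 chips, on which a set of short probes reads each transcript, and the values are linear signal intensities. The remaining 12 arrays held polysomal RNA of the same FD22 and FD19 lysates, taken from mRNAs carrying more than 7 ribosomes, and total and polysomal RNA of newborns 5 h after birth (P1). Those arrays helped to estimate the spread, and the polysomal ones give a second reading of the same lysates. In RNA of a whole organ, fewer cells of a type and less RNA per cell cannot be told apart.

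In the canalicular stage the distal airways are narrow tubes whose tips still divide and branch inside a thick mesenchyme. In the saccular stage the tubes widen into thin-walled sacs, the epithelium separates into flat gas-exchange cells and secretory cells that store surfactant, and capillaries come to lie against it. Growth slows over the same days, while glucocorticoids and other hormones prepare the lung for air, and cells of the innate immune system settle in the tissue.

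The labelled tissue was checked first. The lung epithelial genes Nkx2-1, Epcam and Cdh1, the surfactant genes Sftpb and Sftpc, the mesenchymal genes Tcf21, Foxf1, Pdgfra and Col1a1, and the endothelial genes Pecam1 and Tek were tested on all arrays, and the lowest signal of any of them on the 6 arrays was 373, that of Pecam1 in 1 FD19 litter. Of these Sftpb, Tcf21, Pecam1 and Tek rose, and Nkx2-1 fell by 0.38 ± 0.10 (adjusted p = 0.013), which missed the threshold once FD22 replicate 2, FD19 replicate 2 or FD19 replicate 3 was left out (0.0544 to 0.0621). Transcripts known from liver were high in 1 FD22 litter. Of 13 liver genes measured, 12 were highest in FD22 replicate 2, and 11 of these exceeded the next of the 6 arrays more than 5 times. Albumin (Alb) read 103, 5662 and 147 at FD22, against 100.1, 97.4 and 135 at FD19, and the fetal serum protein gene Afp read 5.5, 1462 and 4.2 at FD22, against 6.4, 19 and 36.6 at FD19. The summed signal of the 13 genes was 401, 11900.2 and 618 at FD22, against 299, 468 and 438 at FD19, and none of the 13 had a signal of 0. The polysomal array of that lysate showed the same genes, with a sum of 11965, where the other FD22 and FD19 polysomal arrays lay between 233 and 418. On the total RNA array of FD22 replicate 2, 26 probe sets were above 96.4 and more than 5 times each of the other 5 total RNA arrays, against 0 or 1 such probe sets on each of those 5. Only 2 of the 26 were called below. They are those of the fibrinogen gene Fgg and the apolipoprotein gene Apoc1, so counts are also given without this litter where it matters.

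**Figure D1:**
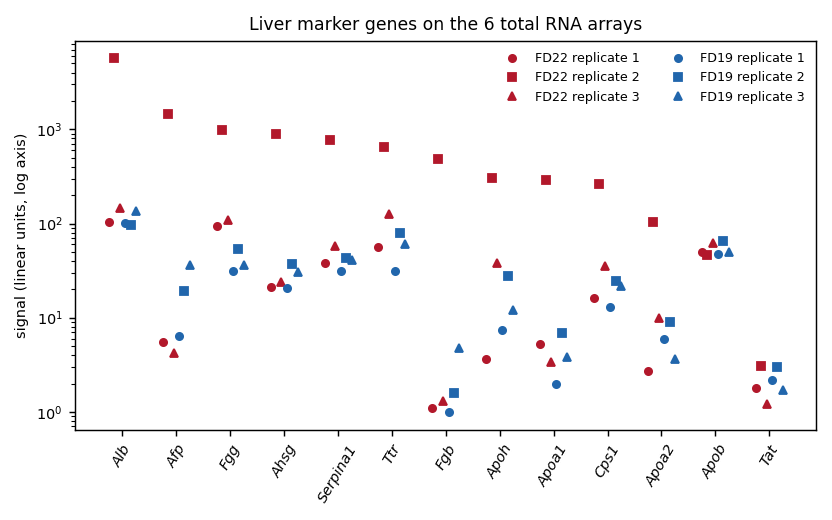
Signal of 13 liver genes (horizontal axis) on a log axis of linear signal units, with 1 point per total RNA array, FD22 in red and FD19 in blue. The red squares, FD22 replicate 2, stand far above the other arrays for 11 of the 13 genes, up to 5662 for Alb.

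Muscle and cartilage genes also varied between litters. The summed signal of 16 heart and skeletal muscle genes was 3011, 1549 and 4300.2 at FD22, against 4857, 2028 and 2445 at FD19, the ranges overlapped, and 0 of the 16 were called. Over 14 genes of esophagus, thyroid and cartilage the sums were 756, 1014 and 907 at FD22, all below 2524, 1497 and 1565 at FD19, and the cartilage collagen genes Col2a1, Col9a1 and Col9a3 fell (3 of 14). The part of these tissues in the results below was not tested. The first principal component of the 6 arrays held 47.9% of the variance and separated the stages. The second, with 20.3%, placed the arrays numbered 1 at 39.4 (FD22) and 27.8 (FD19) and the other 4 between -27.2 and -0.33. Array medians ran from 61.7 to 73.5 at a nearly constant trimmed mean of 150.03 to 150.04.

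Of 21675 probe sets bright enough to be tested, 3520 (16.2%) changed, 1824 higher (8.42%) and 1696 lower (7.82%) at FD22. Changed, risen and fallen mean a Benjamini-Hochberg adjusted p under 0.05 in limma's moderated test, over all 21675 probe sets and n = 3 arrays per stage. Without FD22 replicate 2 the count was 3149, and 2790 of those were among the 3520. Centring each array on its median instead turned the split to 1398 higher and 2050 lower. Counted once per gene, by the probe set with the highest mean signal, 2322 of 11590 genes changed (20%), 1122 of them higher (9.68%) and 1200 lower (10.4%). These 3 shares are the background for every gene count below. Genes that fell numbered 757 without FD19 replicate 1 and 751 without FD19 replicate 3, and those that rose 843 to 995 without any 1 of the 6 litters. Leaving out a litter removed both its total and its polysomal array from the fit. The median log2 change over all genes was -0.0063.

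Large rises outnumbered large falls. More than 2-fold changes were measured in 426 genes that rose and 300 that fell, more than 4-fold changes in 68 and 26, and more than 8-fold changes in 15 and 3. Most changes were modest, since the median change among the 2322 genes was 1.70-fold and 579 of them changed by less than 1.5-fold. The 3 FD22 signals did not overlap the 3 FD19 signals in 4549 genes (39.2%), and 2280 of the 2322 changed genes were among them. The call depended on brightness. In the dimmest 25% of probe sets 6.14% changed, with a median standard error (SE) of 0.31 on the log2 scale, and in the brightest 25% of them 27.1% did, with a median SE of 0.16. Among the probe sets tested 5580 were not assigned to a single gene, with none or several named. Of these 397 rose (7.11%) and 286 fell (5.13%).

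**Figure D2:**
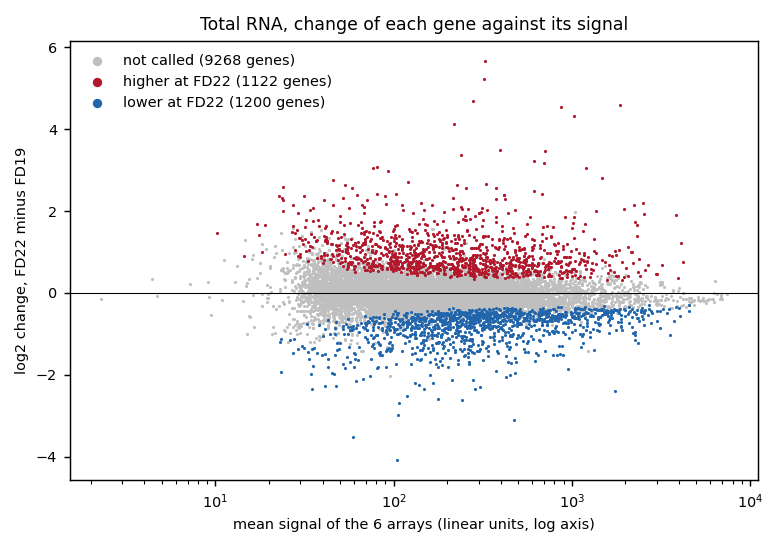
Log2 change of each of 11590 genes (vertical axis, FD22 minus FD19) against its mean signal over the 6 arrays (horizontal log axis, linear units). Red genes rose, blue genes fell and grey genes did not pass the test, and the red points reach farther from 0 than the blue ones.

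Rises and falls of single genes are given below as log2 changes ± SE, where 1 stands for a 2-fold change. Each is a difference of log2(signal + 5.5), with the SE from limma over n = 3 arrays per stage. The constant compresses changes of dim genes, so that a fold against signals near 5.5 depends on it. Genes named by rank or from a list were taken from changed genes whose stages did not overlap. Statements of no overlap for them restate this choice and are not a further result.

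The rises are given from the ranks behind the 6 largest. Pla2g2a, a secreted phospholipase A2 that acts on bacterial membranes, had signals of 424, 547 and 274 at FD22, against 27.1, 6.5 and 26.3 at FD19, and rose by 4.13 ± 0.41 (adjusted p = 2.41e-06). S100g, the calcium-binding protein calbindin-D9k, stood at 409.9, 454 and 461 at FD22, against 32.5, 45 and 37.4 at FD19, and rose by 3.36 ± 0.34. In both genes the lowest FD22 array was more than 9 times the highest FD19 array. Chi3l1, a chitinase-like secreted glycoprotein, read 624, 518 and 1051 at FD22, against 75, 48.1 and 52 at FD19 (3.48 ± 0.34 higher). Saa3, an acute-phase serum amyloid A, read 1345, 1329 and 679 at FD22, against 93, 112 and 125 at FD19 (3.22 ± 0.34 higher). The complement component C3 read 1163, 1299.7 and 1347 at FD22, against 130.2, 128 and 150.5 at FD19 (3.17 ± 0.27 higher). No array of one stage reached the range of the other in these 3 genes, and the highest adjusted p was 4.27e-06. Veph1, which codes for a PH-domain protein, rose by 2.97 ± 0.63 to 214, 176 and 112 at FD22, against 9.9, 11.9 and 30.6 at FD19, with arrays close to the added constant at FD19. Alox15, the arachidonate 15-lipoxygenase, varied most among the FD22 arrays, with 289, 113 and 228 at FD22, against 63.1, 12.3 and 18.3 at FD19 (2.71 ± 0.51 higher, adjusted p = 0.00102).

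Several rises stood out by their size relative to the spread rather than by their size alone. Fgl2, a fibrinogen-like protein with prothrombinase activity, read 1049, 989.8 and 1092 at FD22, against 174, 163 and 209 at FD19, and rose by 2.49 ± 0.17 (adjusted p = 7.53e-08). Cd74, the invariant chain of class II antigen presentation, read 948, 791 and 1018 at FD22, against 282, 229.6 and 242 at FD19, and rose by 1.85 ± 0.15. Plekhb2, a PH-domain protein of endosomes, read 799, 573 and 733 at FD22, against 195, 173 and 162 at FD19, and rose by 1.94 ± 0.15. All 3 genes were picked by limma's statistic, which divides the change by its SE, so a small spread was part of the choice.

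The falls are given by the same ranks, behind the 6 largest. Cbln2, a secreted organiser of synapses in the brain, had 38.4, 75.1 and 32.8 at FD22, against 251, 328 and 340.2 at FD19, and fell by 2.59 ± 0.23 (adjusted p = 7.14e-07). Rps6ka6, a kinase of the ribosomal S6 kinase family, had 25, 40.4 and 30.7 at FD22, against 220.3, 208 and 189.9 at FD19, and fell by 2.51 ± 0.22. Bcl11a, a zinc finger repressor known for silencing fetal globin, had 51.7, 49.7 and 34.9 at FD22, against 228, 249.9 and 225 at FD19, and fell by 2.25 ± 0.20. The FD22 and FD19 arrays did not overlap in any of the 3, and all FD22 signals were below 76. Arxes1, an X-linked gene expressed in adipocytes, fell by 2.21 ± 0.22 and Capn6, a calpain without protease activity, by 2.27 ± 0.46. Gli1, the transcription factor that hedgehog signals switch on, had 29.4, 14.7 and 13.5 at FD22, against 139.8, 99 and 72.8 at FD19, and fell by 2.16 ± 0.35 (adjusted p = 0.000273). Col18a1, a basement membrane collagen and the source of endostatin, fell by 2.35 ± 0.29. Ect2, the exchange factor that sets the cleavage plane of dividing cells, was picked for its small spread and fell by 2.01 ± 0.19.

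**Figure D3:**
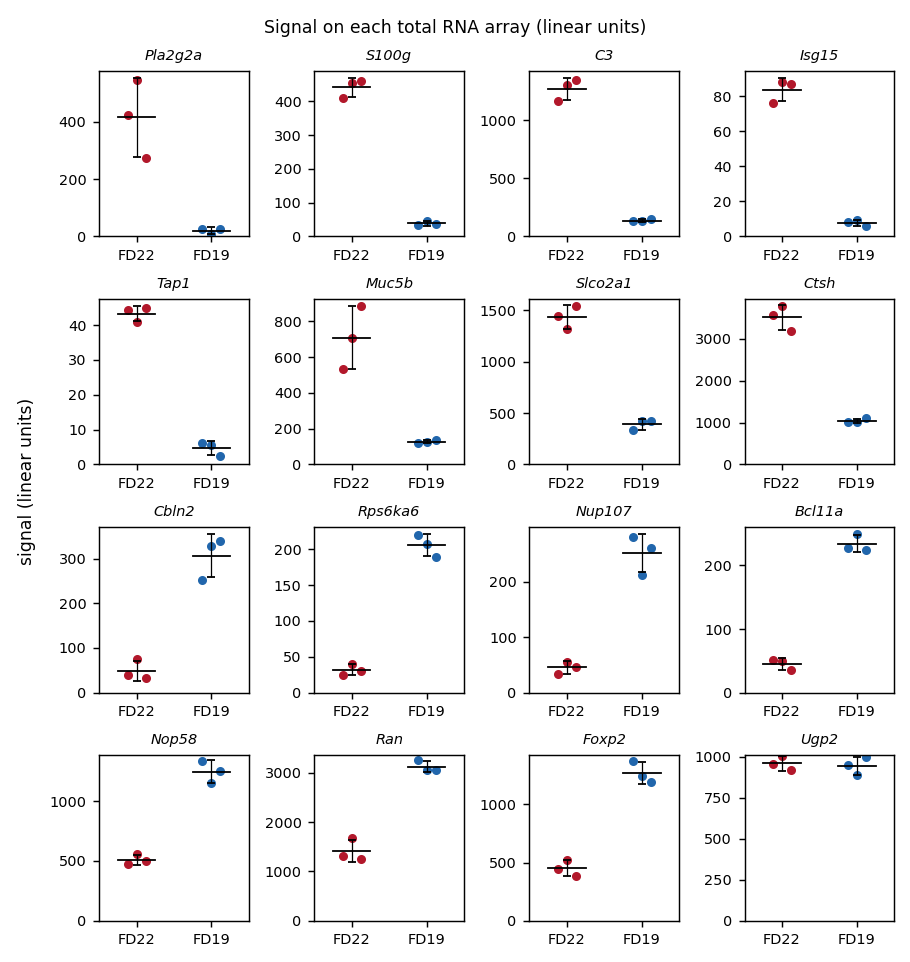
Signal of 16 genes on each total RNA array (points), with the mean (line) and SD of the 3 arrays (bar), FD22 left of FD19, each panel on its own linear axis from 0. In 15 panels the stages do not overlap, and Ugp2, at 954, 1004 and 918 at FD22 and 947, 890.0 and 1000.1 at FD19, is an example of a gene that stayed level.

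Genes that process RNA and build ribosomes fell, and none of those tested rose. Of 58 splicing factor genes, 40 fell and 0 rose, with a median log2 change of -0.64. The snRNP protein genes Snrpa (-1.39 ± 0.23) and Snrpd1 (-1.24 ± 0.25) and the splicing regulator Rbmx (-1.24 ± 0.16) were among those that fell most. Rbmx read 274, 335 and 247 at FD22, against 817, 565 and 666 at FD19. Ribosome biogenesis followed, with 26 of 50 genes lower and 0 higher (median -0.49). Nop58, a core protein of the snoRNPs that guide rRNA methylation, read 475, 555 and 497 at FD22, against 1336, 1149 and 1255 at FD19, and fell by 1.28 ± 0.11 (adjusted p = 5.24e-07). Fbl, the rRNA methyltransferase fibrillarin, read 336, 416 and 383 at FD22, against 827, 755 and 910.0 at FD19, and fell by 1.12 ± 0.14. The FD22 arrays lay below the FD19 arrays in all 3 genes given by array. Utp20, of the small-subunit processome, fell by 1.09 ± 0.17. Lower ribosome biogenesis genes numbered 15 without FD19 replicate 1.

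Genes for building blocks and for protein folding fell without a rise. Of 33 genes of nucleotide and one-carbon synthesis, 21 fell and 0 rose (median -0.64). Dut, the dUTPase that keeps uracil out of DNA, read 671, 841 and 459 at FD22, against 1698, 1558 and 1555 at FD19, and fell by 1.32 ± 0.20 (adjusted p = 0.000177). Rrm1, the large subunit of ribonucleotide reductase, read 187, 239.8 and 161 at FD22, against 518, 473 and 449 at FD19, and fell by 1.28 ± 0.21. Neither gene overlapped between stages. Of 32 aminoacyl-tRNA synthetase genes 10 fell, with Iars1 at -0.72 ± 0.14 and the mitochondrial Yars2 at -0.88 ± 0.20, and 0 rose. The chaperonin CCT, which folds actin and tubulin, and prefoldin had 8 of 14 genes lower and 0 higher, Tcp1 leading with -0.75 ± 0.13. Lower synthetase genes numbered 6 without FD19 replicate 1. Lower chaperonin genes numbered 5 without FD19 replicate 3.

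Of 62 genes of the nuclear pore and the importins, 32 fell and 0 rose (median -0.52). Nup107, of the ring scaffold of the pore, had 34.3, 56.1 and 45.7 at FD22, against 281, 213 and 262 at FD19, and fell by 2.35 ± 0.33 (adjusted p = 7.02e-05), more than any other member of the list. Ran, the GTPase that gives nuclear transport its direction, had 1316, 1676 and 1256 at FD22, against 3256, 3051 and 3061 at FD19, and fell by 1.15 ± 0.12. Every FD22 array of both genes was below the lowest FD19 array. Among 47 DNA repair genes, 15 fell and 1 rose. Exo1, a mismatch repair exonuclease (-1.61 ± 0.26), Rad51c, of homologous recombination (-1.83 ± 0.42), and Fancd2, of crosslink repair (-1.37 ± 0.32), were among the falls, while Xpa, of nucleotide excision repair, rose by 0.52 ± 0.17 (adjusted p = 0.0384). The call of Xpa ended without any of the litters but FD22 replicate 2 (adjusted p 0.0755 to 0.142), and that of Fancd2 without FD19 replicate 3 (0.0514). Lower nuclear pore and importin genes numbered 19 without FD22 replicate 3. Lower DNA repair genes numbered 7 or 8 without FD19 replicate 1 or 3.

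Tubulins and kinesins went both ways. Of 39 genes 17 fell and 4 rose (10.3%, near the background), at a median of -0.51. The steepest falls were those of mitotic kinesins, Kif15 (-2.30 ± 0.23), Kif18b, Kif20b (-1.82 ± 0.21) and Kif2c (-1.75 ± 0.18), and Kif15 read 115, 129.9 and 63.9 at FD22, against 579.5, 484 and 468 at FD19. The 4 that rose were the kinesins of vesicle and endosome transport Kif16b (0.70 ± 0.18), Kif1c (0.62 ± 0.21) and Kif3c (0.48 ± 0.14), and the platelet tubulin gene Tubb1 (0.58 ± 0.16). Each of the 4 lost its call without at least 2 litters. Higher genes of this list numbered 1 or 2 without FD22 replicate 1 or 3 or FD19 replicate 1, 2 or 3.

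The promoters of some mitotic kinesins are shown because they hold a pair of elements that recur in genes of the late cell cycle, the CCAAT box (CCAAT) and the cell cycle homology region, CHR (TTTGAA), both searched on either strand, so that a match on the other strand reads ATTGG or TTCAAA. Sequences are from RefSeq on GRCr8, the 150 bases before the annotated start, 5′ to 3′ along the gene, with matches in capitals. Kifc1 lies at chr20:5000779-5000928 (plus strand), Kif22 at chr1:191080879-191081028 (minus strand) and Kif23 at chr8:71320585-71320734 (minus strand).
Kifc1: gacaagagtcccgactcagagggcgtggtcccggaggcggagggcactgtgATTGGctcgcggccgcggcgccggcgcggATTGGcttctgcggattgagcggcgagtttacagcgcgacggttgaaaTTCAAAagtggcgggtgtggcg
Kif22: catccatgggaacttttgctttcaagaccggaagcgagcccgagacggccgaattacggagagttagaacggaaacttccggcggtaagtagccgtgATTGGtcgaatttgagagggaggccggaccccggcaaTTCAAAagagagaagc
Kif23: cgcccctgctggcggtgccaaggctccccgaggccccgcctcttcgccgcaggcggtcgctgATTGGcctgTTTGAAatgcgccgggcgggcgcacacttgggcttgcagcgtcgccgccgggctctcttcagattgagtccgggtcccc
Kifc1 read 182, 177 and 107 at FD22, against 356, 319 and 346 at FD19, and fell by 1.14 ± 0.19. Kif22 read 136, 221 and 152 at FD22, against 390.4, 347 and 374 at FD19, and fell by 1.13 ± 0.18. Kif23 read 304, 244 and 245 at FD22, against 808, 518 and 553 at FD19, and fell by 1.21 ± 0.19. The stages did not overlap in the 3 genes, which were chosen after their values were seen. Among 27457 promoter windows of 300 bases (250 before the start and 50 after), 37.7% held CCAAT and 18.1% held TTTGAA, and among windows of tested genes 37.8% and 11.3% did. Of 33 windows of the tubulin and kinesin list, 16 held CCAAT (48.5%) and only 6 held TTTGAA (18.2%). Of the tested genes, 456 held both, and of these 91 fell and 31 rose (6.80%), where 10.6% fell and 9.30% rose of all 9617 tested genes with a promoter window. A match is a match of letters and not a measured binding site.

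Genes of chromatin repression and of embryonic RNA-binding proteins followed. Of 31 genes of DNA methylation and Polycomb repression 8 fell and 1 rose. Ezh2, the methyltransferase of Polycomb complex 2, had 158, 228 and 154 at FD22, against 377, 326 and 380.1 at FD19, and fell by 1.00 ± 0.21 (adjusted p = 0.00211). Its homologue Ezh1, which serves non-dividing cells, had 285, 283 and 328 at FD22, against 169, 181 and 154 at FD19, and rose by 0.81 ± 0.16. Both differences left the stages without overlap, and they ran in opposite directions. Trim28, a corepressor of zinc finger proteins, fell by 0.82 ± 0.12. Of 19 HMG and oncofetal RNA-binding protein genes 9 fell and 0 rose (median -0.61), among them Mex3a (-1.11 ± 0.19), Hmgb3 (-1.08 ± 0.19) and the Igf2 mRNA-binding protein Igf2bp1 (-1.02 ± 0.25). Lower DNA methylation and Polycomb genes numbered 4 or 5 without FD22 replicate 3 or FD19 replicate 2 or 3. Without FD19 replicate 3 the adjusted p of Igf2bp1 was 0.0511.

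Genes of the distal epithelial tip gave a mixed list, with 6 of 31 lower and 3 higher. Foxp2, a forkhead factor of the distal lung epithelium, had 441, 526 and 386 at FD22, against 1373, 1246 and 1191 at FD19, and fell by 1.49 ± 0.12 (adjusted p = 4.13e-07). Sox11, a factor of immature tissue, had 94.9, 99.1 and 83.6 at FD22, against 192, 212 and 234 at FD19, and fell by 1.15 ± 0.20. The FD22 arrays of both were at most 526, below every FD19 array of the same gene. Etv5, an ETS factor that FGF signals induce, was lower by 0.95 ± 0.25 (adjusted p = 0.0133). Its call ended without FD22 replicate 2 (adjusted p = 0.055), FD19 replicate 1 (0.0846) or FD19 replicate 3 (0.0693). The 3 rises were those of Cpm, a carboxypeptidase (0.77 ± 0.11), the morphogen Bmp4 (0.73 ± 0.13) and Cldn18, a tight junction protein of the alveolus (0.68 ± 0.13). Among FGF ligands, receptors and their targets 5 of 37 fell and 2 rose, Fgf18 at -0.91 ± 0.25 (adjusted p = 0.0189) and Fgf9 at -0.61 ± 0.18 (adjusted p = 0.0284), with calls that ended without FD22 replicate 2 or FD19 replicate 1 for Fgf18 (adjusted p 0.0834 and 0.118) and without 4 of the 6 litters for Fgf9 (0.0656 to 0.139). Lower tip genes numbered 3 without FD22 replicate 2 or FD19 replicate 3. Lower FGF pathway genes numbered 2 or 3 without FD22 replicate 2 or 3 or FD19 replicate 1 or 3.

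Neuronal and neuroendocrine genes had 6 of 26 lower and 2 higher. Uchl1, a ubiquitin hydrolase of neurons and neuroendocrine cells, had 34.8, 37.6 and 2.6 at FD22, against 175, 209.8 and 172 at FD19, and it was 1 of 2 genes bright at FD19 (above 163 on all arrays) and dim at FD22 (at most 40.8). The other was Rps6ka6. In the opposite direction 4 genes were dim at FD19 and bright at FD22 by the same levels, the proton pump subunit gene Atp6v1c2, the desaturase gene Scd, Fetub and Pla2g2a. Scd had 649.9, 649 and 602 at FD22, against 8.3, 13.6 and 13.6 at FD19. With the bright level at 2 times the dim one in place of 4 times, 18 genes turned bright and 5 dim. Ddc, the decarboxylase that makes serotonin and dopamine, had 161, 194 and 149 at FD22, against 386, 381 and 380.0 at FD19, and fell by 1.17 ± 0.15 (adjusted p = 3.6e-05). Ntrk2, the receptor of brain-derived neurotrophic factor, rose by 2.05 ± 0.44, with 473, 202 and 524 at FD22, against 70.8, 95.7 and 90.1 at FD19. In the list of Schwann cells and glia 4 of 15 rose and 0 fell, led by Prx (periaxin; 2.09 ± 0.18). Prx, Cryab (1.20 ± 0.25) and S100b (0.83 ± 0.21) are not confined to nerve, and which cells carried them here was not tested. The call of S100b ended without FD22 replicate 3 (adjusted p = 0.0515) or FD19 replicate 1 (0.0541). Lower neuronal and neuroendocrine genes numbered 2 or 3 without FD22 replicate 2 or 3 or FD19 replicate 1, 2 or 3. Higher Schwann cell and glial genes numbered 2 without FD22 replicate 3.

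Lysosomal genes rose without a fall. Of 57 lysosomal genes 19 rose and 0 fell (median 0.31). Ctsh, a cathepsin that helps to process surfactant protein B, had 3566, 3775 and 3185 at FD22, against 1009, 1013 and 1103 at FD19, and rose by 1.74 ± 0.14 (adjusted p = 2.87e-07). Ctsc, the cathepsin that activates granule proteases of leukocytes, had 1043, 884 and 899 at FD22, against 436, 435 and 496 at FD19, and rose by 1.04 ± 0.15. Both left the stages apart. The macrophage lysosomal genes Laptm5 (1.09 ± 0.15) and Cd68 (1.12 ± 0.16) are on the same list. Of 111 Rab and exocytosis genes 10 rose, a share near the background, and 2 fell. Rab27a, which tethers secretory organelles, had 606, 374 and 516 at FD22, against 108, 116 and 137 at FD19, and rose by 1.99 ± 0.21, and its partner Myrip rose by 1.23 ± 0.20. Higher lysosomal genes numbered 10 or 12 without FD22 replicate 3 or FD19 replicate 3.

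Genes of mucus and of cilia rose in both lists. Of 61 mucin and O-glycosylation genes 17 rose and 3 fell (median 0.28). Muc5b, a gel-forming mucin of the airways, had 535, 706 and 888 at FD22, against 122, 127 and 136 at FD19, and rose by 2.39 ± 0.25 (adjusted p = 3.03e-06). Agr2, an endoplasmic reticulum protein needed for mucin folding, had 352, 470.2 and 344 at FD22, against 119, 142 and 162 at FD19, and rose by 1.42 ± 0.17. The sialyltransferase gene St3gal1 rose by 1.32 ± 0.19. Of 63 genes of the motile cilium 23 rose and 1 fell (median 0.42). Dnah1, an inner-arm dynein, rose by 1.51 ± 0.25, Cfap144 by 1.51 ± 0.22 and the tubulin-binding gene Tppp3 by 1.44 ± 0.17. Foxj1, the factor that switches on the motile cilium programme, read 212, 212 and 225 at FD22, against 146, 134 and 133 at FD19, a smaller rise of 0.63 ± 0.14 (adjusted p = 0.0045). The gene that fell was Spag5 (-1.34 ± 0.16), which also acts at the mitotic spindle. Of 22 S100 and annexin genes 8 rose and 0 fell. Higher mucin and glycosylation genes numbered 10 without FD19 replicate 1.

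Keratins and desmosomal genes did not share a direction, with 6 of 46 higher and 8 lower. Krt18 fell by 0.78 ± 0.16 and the cadherin gene Cdh3 by 0.87 ± 0.13, while the plakoglobin gene Jup rose by 0.87 ± 0.15, the periplakin gene Ppl by 0.80 ± 0.17 and Perp, of the desmosome, by 1.16 ± 0.17. Perp read 551, 499 and 704 at FD22, against 291, 215 and 269.5 at FD19, and Cdh3 read 209, 228 and 243 at FD22, against 403, 442 and 408 at FD19. Higher keratin and desmosome genes numbered 3 without FD22 replicate 2.

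Of 56 genes for enzymes that handle foreign compounds 15 rose and 0 fell (median 0.29). Sult1a1, a sulfotransferase, read 1499, 1647 and 1367 at FD22, against 481, 488 and 519 at FD19, and rose by 1.59 ± 0.14 (adjusted p = 8.9e-07). Ces1d, a carboxylesterase, read 449, 429 and 384 at FD22, against 114, 119 and 114 at FD19, and rose by 1.81 ± 0.21. The epoxide hydrolase gene Ephx1 rose by 1.77 ± 0.23 and the flavin monooxygenase gene Fmo2 by 1.42 ± 0.24. None of the 4 overlapped between stages. Several of these enzymes are abundant in liver too, and without FD22 replicate 2, the litter with liver transcripts, 16 of the 56 rose.

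Lists of lipid and glycogen metabolism held few changes, and that of mitochondrial import held more. Of 33 genes of phosphatidylcholine synthesis, which makes the main lipid of surfactant, 4 rose and 0 fell, a share close to the background of genes that rose. Lpcat1, the acyltransferase that remodels phosphatidylcholine in type II cells, had 1639, 1194 and 1111 at FD22, against 636, 521 and 549.6 at FD19, and rose by 1.19 ± 0.16 (adjusted p = 3.61e-05). The choline transporter gene Slc44a4 rose by 1.16 ± 0.16 and Prdx6, a peroxiredoxin with phospholipase activity, by 0.77 ± 0.14. Of 46 genes of fatty acid oxidation and peroxisomes 3 rose, among them the fatty acid receptor gene Cd36 (2.03 ± 0.21). Glycogen genes had 1 of 21 higher and 1 lower. The glycogen-targeting phosphatase subunit Ppp1r3b had 478, 559.6 and 461 at FD22, against 941, 932 and 1096 at FD19, and fell by 0.98 ± 0.17 (adjusted p = 0.0005). Genes of mitochondrial import fell in 11 of 37 cases (29.7%, against 10.4% of all genes), with Timm8a1 at -0.88 ± 0.19 and Tomm40 at -0.76 ± 0.16. Citric acid cycle genes fell in 5 of 30 cases (16.7%). Lower import genes numbered 3 to 5 without FD22 replicate 3 or FD19 replicate 1, 2 or 3. Lower citric acid cycle genes numbered 0 to 3 without FD22 replicate 1, 2 or 3 or FD19 replicate 1, 2 or 3.

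In the mesenchyme, 10 of 31 genes of lipofibroblasts and alveolar fibroblasts rose and 2 fell. One of the falls is Plin2, whose probe sets disagree, and leaving out any litter brought the falls to 0 or 1. Scn7a, a sodium channel-like gene of lung fibroblasts in mice, had 2349, 1610.2 and 2656 at FD22, against 572, 481 and 543 at FD19, and rose by 2.01 ± 0.25 (adjusted p = 2.02e-05). Pnpla2, the triglyceride lipase of lipid droplets, had 325, 193 and 218 at FD22, against 116, 74.5 and 70.5 at FD19, and rose by 1.44 ± 0.29. Of 22 pericyte genes 5 rose, with Higd1b at 2.03 ± 0.31 and the aminopeptidase gene Anpep at 1.79 ± 0.23. Of 19 mesothelial genes 7 rose, but Pdpn (1.68 ± 0.19) and C3 are also products of the epithelium. None of the pericyte and mesothelial genes fell. Among 64 proteoglycan and hyaluronan genes, 7 rose (10.9%, near the background) and 2 fell. Cd44, the hyaluronan receptor, had 538, 541 and 621 at FD22, against 298, 218 and 290.1 at FD19, and rose by 1.07 ± 0.17. Higher pericyte genes numbered 3 without FD19 replicate 1. Higher mesothelial genes numbered 4 without FD19 replicate 2.

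Vessel genes rose without a fall in 2 lists. Of 35 genes that mark lymphatic, arterial or venous endothelium 11 rose and 0 fell (median 0.39). Sox17, a factor of arterial endothelium, had 1029, 995 and 1059 at FD22, against 337, 480.3 and 404 at FD19, and rose by 1.34 ± 0.17 (adjusted p = 2.71e-05). Ccl21, the chemokine of lymphatic vessels, rose by 1.17 ± 0.20. Of 39 genes of vascular tone 13 rose and 0 fell. Edn1, which codes for endothelin-1, had 163, 131 and 161 at FD22, against 64.6, 53.5 and 99.2 at FD19, and rose by 1.05 ± 0.23. Vipr1, a receptor of vasoactive intestinal peptide, rose by 1.64 ± 0.33, and Calcrl and Ramp2, the receptor of adrenomedullin and its partner, by 1.36 ± 0.35 and 0.78 ± 0.20. The call of Calcrl ended without FD19 replicate 1 (adjusted p = 0.0891) and that of Ramp2 without FD19 replicate 3 (0.0512). Klf2, a factor that shear stress induces in endothelium, had 1038, 730.4 and 861 at FD22, against 329.8, 374 and 342 at FD19, and rose by 1.30 ± 0.16. The endothelial markers Pecam1 and Tek rose as well, by 0.76 ± 0.15 and 0.54 ± 0.11. Of 26 prostaglandin pathway genes 9 rose and 1 fell. Slco2a1, the carrier that takes up prostaglandins, had 1445, 1316 and 1545 at FD22, against 331, 427 and 419.8 at FD19, and rose by 1.86 ± 0.16 (adjusted p = 4.13e-07). Higher vascular tone genes numbered 8 without FD19 replicate 3.

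Genes of innate defence rose in several lists. Of 51 complement and coagulation genes 17 rose and 1 fell (median 0.30). Beside C3, the terminal component C6 had 185, 214 and 146 at FD22, against 25.7, 34.9 and 69.3 at FD19, and rose by 2.02 ± 0.31 (adjusted p = 0.000152). Serping1, the inhibitor of C1 and of kallikrein, had 712, 705 and 546 at FD22, against 264, 239.7 and 303 at FD19, and rose by 1.26 ± 0.19. Both left the stages apart. Fgg, a fibrinogen chain made mainly in liver, read 95.2, 976 and 108 at FD22, against 31.2, 53 and 36.2 at FD19, so that its change of 2.32 ± 0.74 (adjusted p = 0.0381) was largest in the litter with liver transcripts. The call of Fgg ended when any 1 FD19 litter was left out (adjusted p 0.0733 to 0.125). It held without FD22 replicate 2, the litter with liver transcripts. Without that litter 16 of the 51 rose. Plaur, the urokinase receptor, rose by 1.79 ± 0.36, and the single fall was that of C1qbp (-0.81 ± 0.19), a mitochondrial protein that binds C1q.

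Of 70 chemokine and cytokine genes 20 rose and 2 fell (median 0.47). Cxcl3, a neutrophil attractant, had 4185, 4597 and 3477 at FD22, against 546, 1086 and 1131 at FD19, and rose by 2.21 ± 0.25 (adjusted p = 1e-05). Ccl6 had 127, 134 and 181 at FD22, against 9.5, 24.3 and 7.6 at FD19, and rose by 3.07 ± 0.32, with arrays close to the added constant at FD19. Ccr1, a receptor of several such chemokines on myeloid cells, had 102, 99 and 110.5 at FD22, against 36.8, 23.5 and 23.5 at FD19, and rose by 1.73 ± 0.21. The stages did not overlap in any of the 3, which the choice of genes required. Cxcl1 and Il1b rose too, by 2.60 ± 0.45 and 1.54 ± 0.31, with FD19 signals near the added constant. Mif, a macrophage cytokine found in many cells, fell by 1.01 ± 0.19 and Il17b by 1.43 ± 0.39, the call of Il17b ending without FD22 replicate 1 (adjusted p = 0.0633) or FD19 replicate 3 (0.077). Of 43 Toll-like receptor pathway genes 11 rose and 0 fell. Clec7a, the beta-glucan receptor dectin-1, had 212, 254 and 246 at FD22, against 53.7, 47.5 and 42.2 at FD19, and rose by 2.19 ± 0.19 (adjusted p = 4.83e-07). Irak2, a kinase below the receptors, rose by 1.38 ± 0.22, Casp1 by 1.07 ± 0.18 and the inhibitor Nfkbia by 1.00 ± 0.19.

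Markers of leukocytes were tested in a pair of lists. Of 23 genes of mast cells, neutrophils and platelets 8 rose and 1 fell (median 0.73). The neutrophil genes S100a8 (1.29 ± 0.29), S100a9 (1.38 ± 0.30) and Camp (1.31 ± 0.25) rose, and S100a9 had 936, 1136 and 1255 at FD22, against 514, 418 and 342 at FD19. Hdc, the enzyme that makes histamine, had 128, 351 and 147 at FD22, against 837, 736 and 668 at FD19, and fell by 1.96 ± 0.32 (adjusted p = 0.000293), whereas the mast cell tryptase gene Tpsab1 had 35, 104 and 27.8 at FD22, against 14.1, 14.7 and 12.7 at FD19, and rose by 1.45 ± 0.40. The high value of Tpsab1 came from the litter with liver transcripts, and without it the adjusted p was 0.0875, as it was 0.063 without FD19 replicate 3. Of 23 lymphocyte genes 2 rose (8.7%, near the background) and 0 fell. The 2 were Il2rg, a shared cytokine receptor chain (1.04 ± 0.18), and Ly6c, which is also found on monocytes and endothelium (1.01 ± 0.20). Ptprc, the antigen CD45 of all leukocytes and a member of the phosphatase list, rose by 1.63 ± 0.18. Higher mast cell, neutrophil and platelet genes numbered 5 without FD22 replicate 2 or FD19 replicate 3.

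Interferon-induced genes and genes of class I antigen processing rose in 23 of 47 cases, with 0 falls and a median log2 change of 0.58. Many such genes carry an interferon-stimulated response element (ISRE) near the start. The 150 bases before the annotated start are shown for 4 members that rose and for Isg20, which carries the element and did not pass the test, from RefSeq on GRCr8, 5′ to 3′ along the gene. Capitals mark matches to TTTC, any 2 bases, TTTC, on either strand (GAAA, any 2 bases, GAAA on the other), and matches may overlap. Tap1 lies at chr20:4668544-4668693 (minus strand), Irf7 at chr1:205800024-205800173 (minus), Bst2 at chr16:18254968-18255117 (minus), Gbp2 at chr2:234005577-234005726 (plus) and Isg20 at chr1:142239909-142240058 (plus).
Tap1: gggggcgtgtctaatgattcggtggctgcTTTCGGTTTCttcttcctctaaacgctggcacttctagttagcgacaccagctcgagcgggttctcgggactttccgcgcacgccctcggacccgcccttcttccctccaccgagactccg
Irf7: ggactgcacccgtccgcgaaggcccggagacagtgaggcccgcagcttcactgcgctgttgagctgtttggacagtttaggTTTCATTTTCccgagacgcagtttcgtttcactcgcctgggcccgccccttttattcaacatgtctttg
Bst2: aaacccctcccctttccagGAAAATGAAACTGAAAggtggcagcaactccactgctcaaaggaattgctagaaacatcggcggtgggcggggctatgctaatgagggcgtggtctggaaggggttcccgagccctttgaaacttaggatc
Gbp2: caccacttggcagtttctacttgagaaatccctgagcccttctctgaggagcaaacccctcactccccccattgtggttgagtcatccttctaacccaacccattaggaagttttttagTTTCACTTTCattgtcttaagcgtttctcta
Isg20: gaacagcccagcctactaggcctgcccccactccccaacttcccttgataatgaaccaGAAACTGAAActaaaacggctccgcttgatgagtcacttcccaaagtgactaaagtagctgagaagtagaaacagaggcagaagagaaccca
Tap1, the peptide transporter of class I loading, had 44.2, 40.9 and 44.8 at FD22, against 6.3, 5.6 and 2.3 at FD19, and rose by 2.28 ± 0.28 (adjusted p = 2.02e-05). Irf7, a master factor of interferon responses, had 107, 134 and 132 at FD22, against 53.9, 50.6 and 61.9 at FD19, and rose by 1.09 ± 0.18. Bst2, an antiviral tether, had 569, 696 and 572 at FD22, against 169, 295 and 284 at FD19, and rose by 1.31 ± 0.27. Each of these kept the stages apart. Gbp2, a guanylate-binding protein, had 99.7, 113 and 129.6 at FD22, against 26.8, 37.2 and 53.2 at FD19, and rose by 1.46 ± 0.33. Isg20, an exonuclease, had 108, 108 and 93 at FD22, against 103, 92.4 and 118 at FD19, with a change of -0.02 ± 0.17 (adjusted p = 0.966) and overlapping stages.

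Isg15, the ubiquitin-like protein that interferon induces, had 76.1, 88.2 and 87 at FD22, against 8.1, 9.1 and 5.9 at FD19, and rose by 2.76 ± 0.26 (adjusted p = 1.25e-06). Its FD19 signals too lay near the added constant. Ifitm1, an antiviral membrane protein, had 566, 512 and 692 at FD22, against 161, 158 and 154 at FD19, and rose by 1.86 ± 0.20. The immunoproteasome genes Psmb8 and Psmb9 rose by 1.15 ± 0.17 and 0.88 ± 0.17, and B2m, the light chain of class I molecules, by 0.62 ± 0.15, all 3 named after their values were seen, like Irf7, Bst2 and Isg20. Of 38 members with a promoter window, 23 held the ISRE letters (60.5%), against 3.77% of all windows and 2.92% of those of tested genes. Of the 23 members with it 12 rose (median 0.55), and of the 15 without it 7 rose (median 0.53). Among 258 tested genes with the letters outside the list 34 rose (13.2%).

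**Figure D4:**
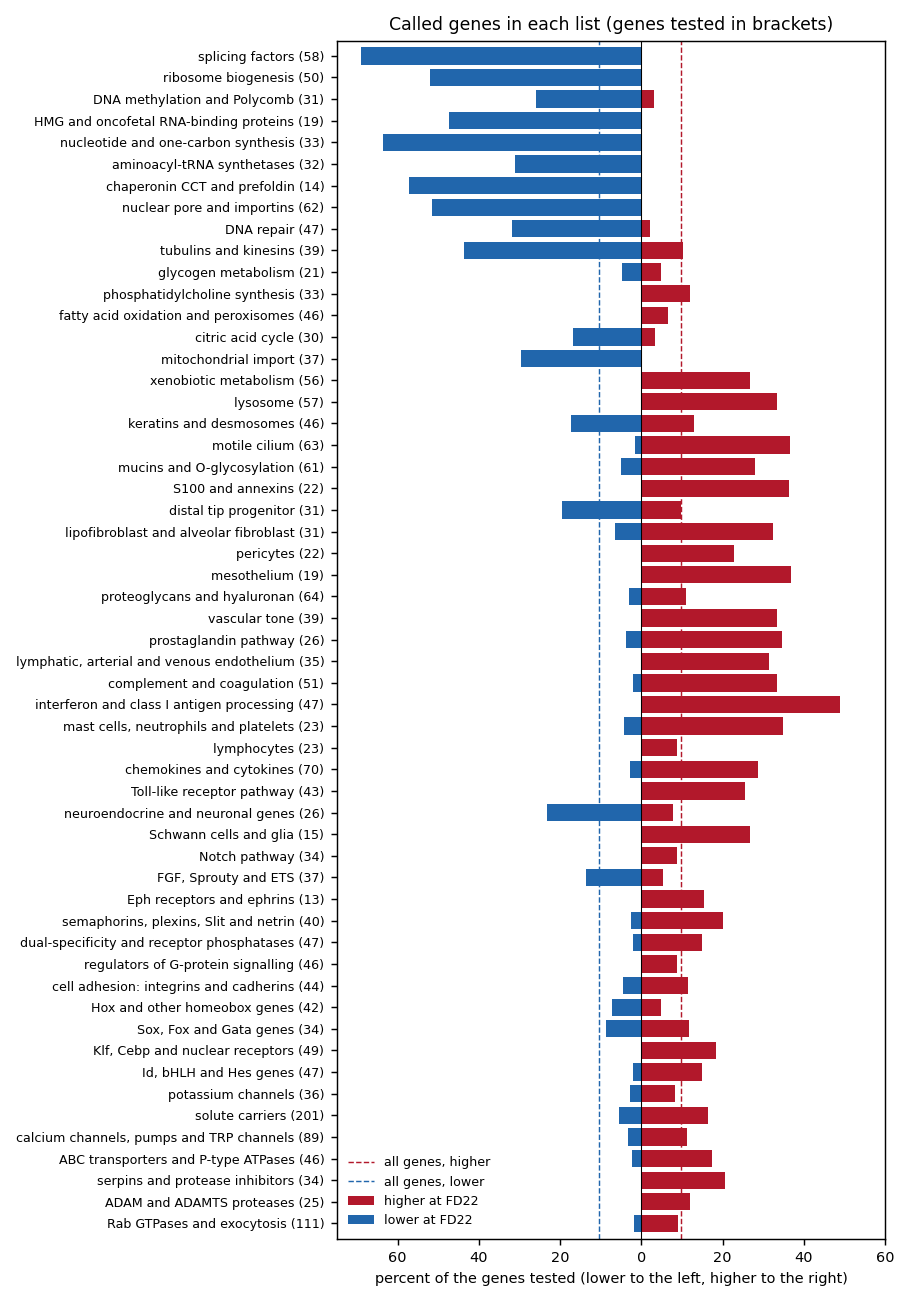
Percent of the tested genes of each list that rose (red, to the right) or fell (blue, to the left) at FD22, with dashed lines at the shares over all genes, 9.68% higher and 10.4% lower. Lists of growth and RNA processing lie to the left, led by splicing factors with 40 of 58, and lists of defence, cilia, lysosome and vessels to the right, among them interferon and class I genes with 23 of 47.

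Transcription factors were read by family. Of 49 Klf, Cebp and nuclear receptor genes 9 rose and 0 fell. Cebpd and Klf9, both known glucocorticoid-induced genes, rose by 1.54 ± 0.33 and 1.31 ± 0.30. Cebpd had 320.2, 226 and 349 at FD22, against 110.0, 101 and 82.9 at FD19, and Klf9 had 974, 654 and 957 at FD22, against 398, 275 and 354 at FD19, without overlap. Of 47 Id, bHLH and Hes genes 7 rose and 1 fell, among them the clock factors Bhlhe40 (1.38 ± 0.22), Bhlhe41 (1.37 ± 0.24) and Npas2 (1.12 ± 0.21) and the mesenchymal factor Tcf21 (0.93 ± 0.14). Hox and other homeobox genes had 2 of 42 higher and 3 lower, both shares below the background. Hoxa5, a patterning gene of lung mesenchyme, had 892, 769 and 832 at FD22, against 765, 774 and 806 at FD19, and the 95% interval of its change lay within 0.32 of 0 on the log2 scale. Sox, Fox and Gata genes had 4 of 34 higher (11.8%) and 3 lower (8.8%), both near the background. Higher Id, bHLH and Hes genes numbered 4 without FD19 replicate 3.

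Signalling lists held a few rises each. Semaphorins, plexins, Slit and netrin genes had 8 of 40 higher and 1 lower, with Sema3b (2.31 ± 0.47), Sema4a and Sema6d (1.12 ± 0.18) in front. Phosphatases had 7 of 47 higher and 1 lower, and Dusp1, which switches off MAP kinases, had 833, 409.7 and 564 at FD22, against 187, 273 and 223 at FD19 (1.34 ± 0.24 higher). Notch pathway genes had 3 of 34 higher and 0 lower, regulators of G-protein signalling 4 of 46 and 0, Eph receptors and ephrins 2 of 13 and 0, and integrins and cadherins 5 of 44 and 2. Serpins and other protease inhibitors had 7 of 34 higher, led by Cst6 (2.00 ± 0.36), and ADAM and ADAMTS proteases 3 of 25, with 0 lower in both lists. Higher genes of the semaphorin list numbered 3 to 5 without FD22 replicate 1 or 3 or FD19 replicate 1, 2 or 3. Higher regulators of G-protein signalling numbered 1 or 2 without FD22 replicate 2 or 3 or FD19 replicate 1, 2 or 3.

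Solute carriers were the longest list. Of its 201 genes 33 rose and 11 fell. Beside Slco2a1, the zinc and manganese carrier gene Slc39a8 had 524, 380.3 and 531 at FD22, against 168, 142 and 137 at FD19, and rose by 1.63 ± 0.22 (adjusted p = 3.61e-05). Slc7a7, a light chain of an amino acid exchanger, had 207, 253 and 232 at FD22, against 78.5, 77.6 and 91.8 at FD19, and rose by 1.42 ± 0.20. Slc1a5, the glutamine carrier, had 77.1, 70.4 and 98.1 at FD22, against 176, 194 and 175 at FD19, and fell by 1.11 ± 0.20, as did the neutral amino acid carrier Slc38a1 (-0.96 ± 0.15). ABC transporters and P-type ATPases had 8 of 46 higher and 1 lower, with the cholesterol exporters Abca1 (1.09 ± 0.19) and Abcg1 (1.07 ± 0.20) both higher. Potassium channels had 3 of 36 higher (8.3%), led by Kcnj15 (1.63 ± 0.25), and 1 lower, and calcium channels, pumps and TRP channels 10 of 89 higher (11.2%) and 3 lower. Both shares of rises were near the background. Higher solute carrier genes numbered 21 without FD19 replicate 1. Lower solute carrier genes numbered 5 to 7 without FD19 replicate 1, 2 or 3. Higher calcium channel, pump and TRP genes numbered 6 without FD22 replicate 3.

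Across all lists together 618 of 2276 genes changed (27.2%), against 20% of all genes. The lists had been written for the perinatal lung with earlier results of these data known, so the higher share is a description only. In lists with at most 3 genes in a direction, leaving out a litter moved the count by up to 3. A steady level could be shown for fewer genes than a change. The 95% interval lay within 0.32 of 0 on the log2 scale in 244 genes, of which 173 were in the top 25% by signal, while 9024 genes were neither called nor shown to be steady. The steady genes with the smallest errors were the myosin light chain genes Myl12a and Myl12b, the integrin gene Itgb1, Ugp2 (which makes UDP-glucose), Btg1, Vapa, Rab2a and Hoxa5. Itgb1 read 2591, 2877 and 2676 at FD22, against 2859, 2639 and 3018 at FD19, a change of -0.06 ± 0.10.

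Some homologues moved apart, as Ezh2 and Ezh1 did. The mitotic cyclin gene Ccna2 had 161, 258 and 99 at FD22, against 624, 721 and 705 at FD19, and fell by 2.05 ± 0.29, while its homologue Ccna1 had 86.9, 114 and 98.3 at FD22, against 35, 32.4 and 47.9 at FD19, and rose by 1.27 ± 0.20. Sox17 rose where Sox11 fell. Of the pocket proteins, which restrain E2F factors, Rbl1 fell by 1.17 ± 0.21 and Rbl2 rose by 0.84 ± 0.14. Among inhibitors of metalloproteases Timp1 fell by 0.74 ± 0.13, and Timp3 rose, with 3684, 2483 and 3966 at FD22, against 1438, 1079 and 1263 at FD19. The Ezh1 and Ezh2, Rbl and Timp pairs were picked after their values were seen. In all 75 of 273 groups of genes with a shared symbol stem and at least 2 changed members held changes in both directions. Within a gene, 289 genes had 2 or more changed probe sets, and in 2 of them the probe sets changed in opposite directions. Plin2, which coats lipid droplets, read 496, 588 and 406 at FD22, against 294, 317 and 314 at FD19 on one probe set (0.66 ± 0.21 higher). On its brighter probe set it read 657, 754 and 627 at FD22, against 1042, 1021 and 1002 at FD19 (0.59 ± 0.19 lower). This fall (adjusted p = 0.0434) missed the threshold whichever litter was left out (0.0546 to 0.125). Its direction is therefore not settled here. The same held for Ppp4r2, a phosphatase 4 subunit, with 0.50 ± 0.15 on one probe set and -0.39 ± 0.11 on the other, the fall missing the threshold without any FD19 litter (adjusted p 0.0506 to 0.0821).

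Promoter letters are given next as a description. Of 9617 tested genes with a window, those with 0 to 9 CpG pairs in 300 bases rose in 17.2% and fell in 5.06% of 1819 cases, and those with 20 to 29 pairs rose in 7.21% and fell in 14.5% of 3036 cases. Between them, with 10 to 19 pairs, 7.89% of 2586 genes rose and 10.3% fell, and with 30 or more pairs 7.31% of 2176 genes rose and 10.1% fell, so that falls did not keep rising with CpG content. The median signals over the 18 arrays were 99.1, 169, 210.0 and 230.2 from the fewest to the most pairs, and the part of brightness was not tested. The AP-1 site (TGACTCA), held by 4.53% of all windows and 3.46% of those of tested genes, stood in 9.94% of windows of genes that rose more than 2-fold and in 2.05% of those that fell more than 2-fold. Over changes of any size, the sites of the growth-related factors NRF1 (GCGCA, any base, GCGC) and ETS (CCGGAAG) ran the other way. Genes with the NRF1 letters rose in 3.95% and fell in 15.8% of 936 cases, and genes with the ETS letters rose in 56 (3.38%) and fell in 216 of 1657 cases. In genes that fell more than 2-fold, NRF1 letters stood in 10.7% and ETS letters in 18.4% of windows. These shares were near the 9.73% and 17.2% of tested genes. In genes that rose more than 2-fold, the shares were lower, 3.92% for NRF1 and 3.01% for ETS. NRF1 letters stood in 14 of 55 windows of splicing factor genes, against 4.71% of all windows and 9.73% of those of tested genes. ETS letters stood in 15 of the 55, against 9.22% of all windows and 17.2% of those of tested genes. The TATA box (TATAAA) was held by 14.3% of all windows and 7.08% of those of tested genes, and of 681 tested genes with it 14.1% rose and 8.66% fell. Motifs share base composition, both strands were searched, and these shares are descriptions without a test.

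**Figure D5:**
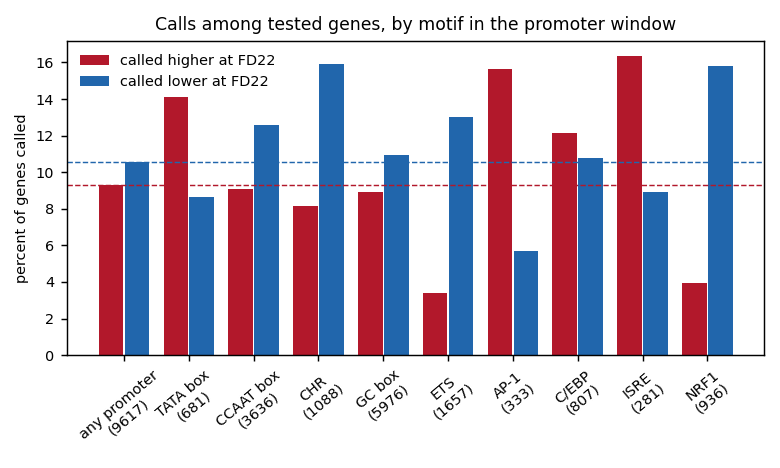
Percent of tested genes that rose (red) or fell (blue) at FD22, by motif letters in the promoter window of 300 bases, with the number of genes in brackets and dashed lines at the shares of all 9617 genes with a window (9.30% and 10.6%). Genes with ISRE or AP-1 letters rose more often than they fell, and genes with NRF1, ETS or CHR letters fell more often than they rose. GC box stands for GGGCGG and C/EBP for TTGC, any 2 bases, AA.

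By chromosome, the X had the highest share of falls of the 21 chromosomes, with 53 of 351 genes lower (15.1%) and 25 higher (7.12%), at a median log2 change of -0.085. Arxes1, Capn6 and Rps6ka6 are X-linked.

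The polysomal arrays of the same lysates read the same stages. Of the 1122 genes that rose in total RNA, 814 also rose in polysomal RNA, where 10.1% of all genes rose, and of the 1200 that fell 725 fell, where 9.56% of all genes fell. None changed in the opposite direction. The median changes were 0.80 in polysomal and 0.85 in total RNA for the rises, and -0.60 and -0.69 for the falls, and the genes had been chosen by total RNA, which bears on that order. The change between stages differed between the RNA fractions for 0 probe sets (0%) in limma, with 781 at an unadjusted p under 0.05. That fit took the total and polysomal arrays of a lysate as independent. With the lysate as a random block in limma (correlation 0.31), 0 probe sets passed and 1573 had an unadjusted p under 0.05. In the main fit the smallest unadjusted p among changed genes belonged to Fbn2, Pbk, Ctsh and Sftpa1. Ctsh rose by 0.84 ± 0.14 in polysomal and 1.74 ± 0.14 in total RNA, a difference of -0.90 ± 0.19 (adjusted p = 0.987), and Fbn2, a microfibril gene, changed by -0.32 ± 0.14 in polysomal and -1.23 ± 0.14 in total RNA.

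Values after birth, which share the FD22 arrays, are given side by side for genes picked because they changed after birth. Other named genes did not pass that test, among them C3 (-0.15 ± 0.27), Ctsh (0.09 ± 0.14) and Cd74 (0.27 ± 0.15). The share of all genes that changed after birth is not given here. Mean signals of Veph1 were 17.5 at FD19, 168 at FD22 and 40.7 at P1, and the change from FD22 to P1 was -2.38 ± 0.63 (adjusted p = 0.038). Ppp1r3b stood at 989.9, 499.6 and 149, with a further change of -1.72 ± 0.17 after birth. The glutamine carrier gene Slc1a5 stood at 182, 81.9 and 234, lower before birth and higher after it (1.46 ± 0.20), and Krt18 at 441, 253 and 506 (0.99 ± 0.16). Stx11, a syntaxin of cytotoxic granules, stood at 30.1, 69.0 and 180.1, and its change after birth was 1.32 ± 0.17. Foxp2 stood at 1269.9, 451 and 262, and fell again by 0.76 ± 0.12.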

How the data were processed

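Per the labels, RNA was extracted with Trizol and 5 ug was labelled by in vitro transcription for Affymetrix Rat Genome 230 2.0 arrays. The deposited table holds linear signal intensities, which the authors scaled to a common trimmed mean of about 150 (150.03 to 150.04 with 2% trimmed at each end), as the values themselves show. Per the submitters' processing notes GCOS 1.4 was used. The signal algorithm is not given in the sources used here. No depth applies to arrays, and their number limits the precision.

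Of 31099 probe sets, 57 controls were left out. The remaining 31042 were taken as log2(signal + 5.5), 5.5 being the 10th percentile, and 21675 were kept that exceeded 40.8, the 40th percentile, on at least 3 of the 18 arrays. One model with 6 groups (3 stages, total and polysomal RNA) was fitted by limma 3.58.1 in R 4.3.3 with an intensity trend, and FD22 minus FD19 in total RNA was tested with Benjamini-Hochberg adjustment over all kept probe sets. The code was tested on simulated data. Probe sets took gene symbols from GEO's platform annotation (20826 with 1 gene, 436 with several, 9780 with none; 20758 matched RefSeq by gene identifier), and 11590 genes were each read by their brightest kept probe set. Sequences and motif counts used RefSeq promoters on GRCr8, with 9617 tested genes matched. Python 3.11.15, pandas 2.3.3, numpy 2.4.6, scipy 1.17.1 and matplotlib 3.10.9 were also used.

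The replicate numbers come from the labels, and same-numbered FD22 and FD19 arrays did not all deviate together (r = 0.37, 0.22 and -0.031), so they were not treated as pairs. Between the stages, arrays numbered 1 and arrays of the other numbers had r = -0.33 to -0.070. Whether the numbers mark a shared factor was not tested. Genes named were those changed without overlap that ranked 7 to 20 by change or first 8 by limma's statistic in each direction, the 4 furthest each way in each list (6 for solute carriers and for chemokines), the 8 steadiest bright genes, genes bright at one stage and dim at the other, opposed probe sets, opposed homologues and the 4 with the smallest p for a difference between RNA fractions. Members, lists and this rule were chosen with earlier results of these data known, so list counts are descriptions. Alternatives changed the constant, filter, scaling, variance trend, arrays fitted, blocks and litters.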

Additional observations from a re-analysis of the deposited data

How the results depend on the processing

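The 3520 changed probe sets numbered 3450 with the constant at the 1st percentile, 3627 at the 30th percentile, 3198 without a filter, 3423 with a filter at the 60th percentile, 3805 after quantile normalization, 3233 without the variance trend, 3144 with the 6 arrays alone and 3539 with the lysate as a random block. Median centring gave 3448, with 1398 higher and 2050 lower (40.6% higher, against 51.8%). Leaving out 1 litter at a time, with both its total and its polysomal array, gave 2359 to 3149. Arrays numbered 2 and 3 alone gave 2330, of which 2094 were among the 3520. This fit left out the array numbered 1 of each of the 6 groups, total and polysomal, and so had fewer samples. The labels do not say what the numbers stand for, and the main fit did not treat the samples as pairs. With the number as a replicate block the count was 4709, and all 3520 were included. Genes that fell numbered 757 without FD19 replicate 1, 751 without FD19 replicate 3 and 737 with arrays numbered 2 and 3 alone, against 1200. Those that rose numbered 843 to 995 without 1 litter, against 1122. The count of probe sets whose change differed between RNA fractions was 0 in each alternative except quantile normalization, which gave 1. Of 295 changed genes that the naming rule picked, 214 passed under every alternative that tested them and 223 whenever 1 litter was left out, and no direction turned. The filter at the 60th percentile tested 270 of the 295. The cause of these shifts was not tested. Signals near 5.5 carry little information on fold, and bulk RNA with 3 litters a stage limits what can be called.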
